A study of Ovis aries with 10 samples.

Results

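Immediate early genes are transcribed within minutes of a stimulus without new protein synthesis, and their mRNAs are short-lived, so their level in a tissue reflects recent stimulation of its cells. Calcium entry and growth factor signalling reach them through the MAP kinases and the transcription factors CREB and SRF, and many of the products are themselves transcription factors that act on later genes. In the hypothalamus FOS in particular is used as a mark of recently active neurons, although glia, endothelium and other cells induce FOS too. A smaller set, here NPAS4, ARC, NPTX2 and BDNF, is induced mainly in neurons by synaptic activity.

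The set was a list of 37 immediate early and activity-induced genes, taken by symbol from a table of read counts for 33775 genes. Each of the 37 symbols matched 1 row. All 37 members were among the 18276 genes that passed a filter on low counts and were tested. They were 4 neuron-specific members and 33 others. Many cell types induce most of the 33, which also hold the synaptic scaffold gene HOMER1. Counts of members ran from 9 to 25414 reads in a library.

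The tissue was mediobasal hypothalamus, a ventral brain region around the arcuate nucleus, and the animals were adult ewes of a single breed, Ile-de-France. Of 20 ewes, 10 were in the luteal phase, when the corpus luteum secretes progesterone, and 10 in the follicular phase, when progesterone is low. RNA of 2 ewes was mixed in equal amounts for each library, which gave 5 luteal and 5 follicular libraries with no ewe in both phases. A library is therefore the average of a pair of animals, and the tests set the phase difference against the spread between such pairs. The series title asks how progesterone affects the transcriptome of this region, and luteal against follicular phase is the comparison the design gives.

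Library totals ran from 28571863 to 42358557 reads in luteal and from 20644992 to 43193449 reads in follicular libraries. Ribosomal protein genes took 4.47% to 6.44% of the reads in luteal and 4.30% to 8.41% in follicular libraries, the highest shares being in follicular 1 and 3, the shallowest libraries. The first principal component of the libraries held 51.0% of the variance. On it luteal libraries lay between -14.4 and 58.2 and follicular libraries between -61.6 and 48.1. Follicular 1 and 3 were the lowest of all. Follicular 4, at -35.8, also lay below every luteal library, and its ribosomal protein share, 7.38%, was above that of every luteal library. The component thus varied in part with phase, and adjustment for it can take away part of a phase difference. All 6 markers of the mediobasal hypothalamus (POMC, AGRP, TAC3, GHRH, NR5A1 and TBX3) had reads in every library. Their summed level was 1143 to 1700 CPM in luteal and 1134 to 1938 CPM in follicular libraries. POMC was the largest part, at 405 to 1077 CPM in luteal and 516 to 1371 CPM in follicular libraries. CPM, the counts per unit of scaled library total, put libraries of different depth on one scale. Neuron markers summed to 864 to 1186 CPM in luteal and 1050 to 1152 CPM in follicular libraries. Of these 6 markers 3 averaged higher and 3 lower in luteal libraries, with log2 fold changes from -0.45 (RBFOX3) to 0.30 (SNAP25). Pituitary and pars tuberalis markers were present too, and of 4 tested 1 averaged higher and 3 lower in luteal libraries. The higher one was PRL, the prolactin precursor, at 475 to 2721 CPM in luteal and 144 to 2020 CPM in follicular libraries. CGA had 1014 to 1737 CPM in luteal and 1788 to 2383 CPM in follicular libraries, with no overlap (edgeR adjusted p = 0.426). The red blood cell genes summed to at most 0.636 CPM in luteal and 0.973 CPM in follicular libraries, and ALAS2 was at 0. All 6 oligodendrocyte markers averaged lower in luteal libraries, with a summed level of 509 to 1281 CPM, against 827 to 1400 CPM in follicular libraries. Of 6 endothelial markers 5 averaged higher, with 183 to 221 CPM in luteal and 162 to 229 CPM in follicular libraries. All 5 choroid plexus markers tested averaged higher in luteal libraries (median log2 fold change 0.99). The 6 choroid plexus markers listed summed to 12.3 to 21.3 CPM in luteal and 7.75 to 21.6 CPM in follicular libraries. Of astrocyte and of microglia markers 3 averaged higher and 3 lower, of mural markers 2 and 4, and of tanycyte markers 3 and 1. In bulk tissue, fewer cells of a type and less RNA per cell cannot be told apart, and the part of cell composition in the results was not tested.

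No member differed between the phases past the threshold. Of the 37 members 0 passed the edgeR quasi-likelihood test at an adjusted p under 0.05, where 0% of all genes tested did so (member adjusted p from 0.426 to 0.997). DESeq2 called 0 of the 36 members to which it gave an adjusted p, and 0.227% of all such genes, and limma-voom called 0 members and 0% of all genes. At an unadjusted p under 0.05, edgeR gave 1 member higher in luteal libraries, NPAS4, against 4.27% of all genes, and 2 lower, FOSL1 and GADD45G, against 7.12% of all genes. For no member did the 5 luteal values lie wholly above or below the 5 follicular values, a separation seen in 1.12% of all genes (0.607% above and 0.514% below). The count of 3 members at unadjusted p under 0.05 moved with single libraries, and so did the share of all genes. Without follicular 2 it was 9, with 7 members higher (4.37% of all genes) and 2 lower (7.01%). Without follicular 5 it was 6, with 3 higher (17.9% of all genes) and 3 lower (16.2%). Without luteal 4 it was 5, with 1 higher (5.34% of all genes) and 4 lower (10.1%). Without luteal 2, follicular 3 or follicular 4 it was 1, where 2.27% to 2.39% of all genes were higher and 2.77% to 3.44% lower.

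Of the members, 23 (62.2%) had a higher and 14 a lower fitted level in luteal libraries, where 51.5% of all genes were higher and 48.5% lower. On the log2 scale the median luteal over follicular change was 0.09 for members and 0.01 for the 18276 genes. The number of members that averaged higher was 20 of 37 without follicular 1 and 3, where 52.6% of all genes were higher. The 95% intervals of 9 members lay within a 1.5-fold change in either direction. They were JUNB, HOMER1, IER2, IER3, IER5, KLF2, DUSP6, MAFF and TRIB1. For 15 of the 37 members the interval reached beyond a 2-fold change, so for these a difference of that size cannot be set aside given the spread between libraries.

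**Figure D1:**
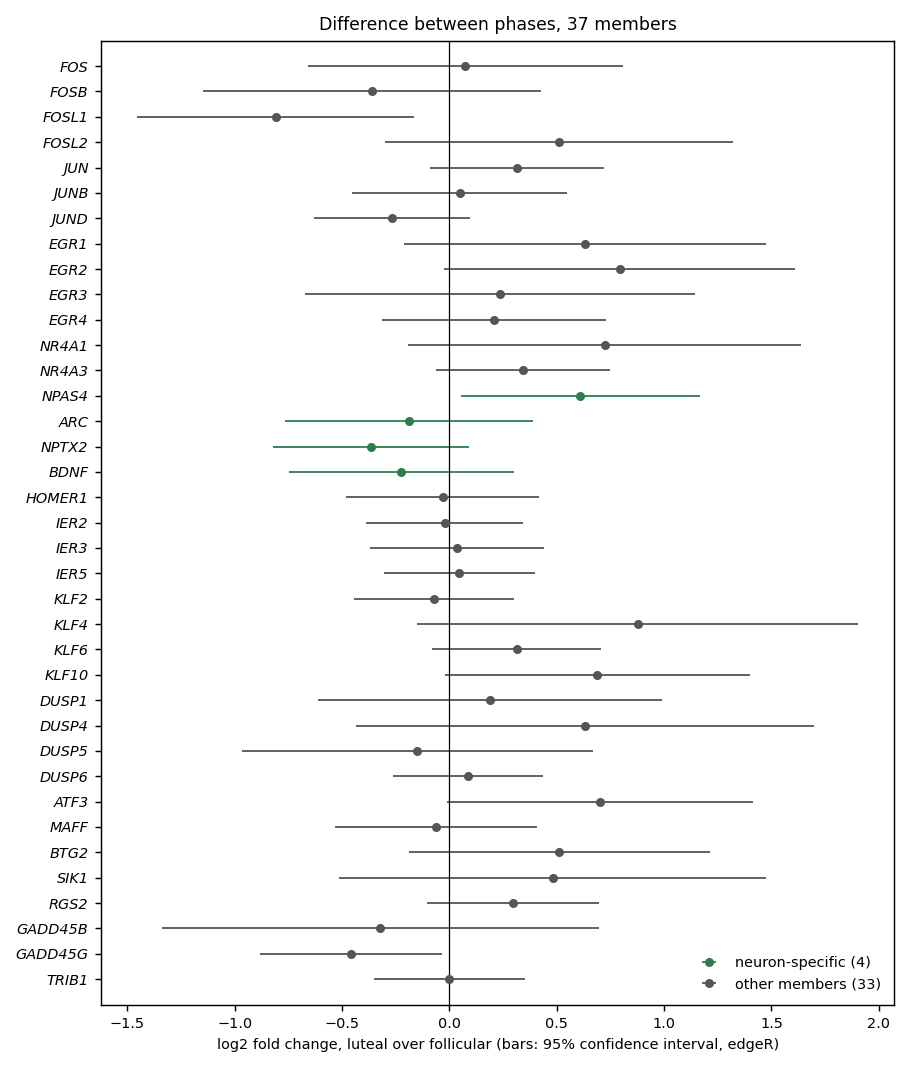
Log2 fold change of luteal over follicular libraries for the 37 members, by edgeR, with unadjusted 95% confidence intervals (n = 5 libraries per phase); green marks the 4 neuron-specific members. Intervals of NPAS4, FOSL1 and GADD45G leave out 0, and none of the 37 passed after adjustment over all genes.

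The neuron-specific members did not share a direction. NPAS4, a neuronal transcription factor switched on by calcium entry, averaged higher in luteal libraries, and ARC, NPTX2 and BDNF averaged lower, none past the threshold. Their median log2 fold change was -0.21, against 0.19 for the other 33 members, of which 22 averaged higher.

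NPAS4 had 10.9, 9.99, 9.22, 4.87 and 6.45 CPM in luteal libraries 1 to 5, against 6.56, 7.41, 3.98, 4.27 and 4.90 CPM in follicular libraries 1 to 5. Luteal 1, 2 and 3 lay above every follicular library, and luteal 4 and 5 lay inside the follicular range. The mean was 8.28 ± 2.53 CPM in luteal and 5.42 ± 1.49 CPM in follicular libraries (SD over 5 libraries each). Its log2 fold change was 0.61 (SE 0.25, edgeR adjusted p = 0.426). It was 0.59 without follicular 1 and 3 and 0.61 after adjustment for the first principal component.

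ARC, whose product regulates AMPA receptor uptake at synapses, had 10.6, 12.3, 15.8, 25.9 and 17.6 CPM in luteal libraries, against 15.9, 28.7, 14.3, 20.3 and 14.4 CPM in follicular libraries. Luteal 1 and 2 were the lowest of the 10 libraries, the reverse of their place in NPAS4, and luteal 4 and follicular 2 the highest. The log2 fold change was -0.19 (95% interval -0.76 to 0.39).

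NPTX2, a secreted pentraxin that clusters AMPA receptors, had 54.4, 44.4, 45.5, 51.4 and 49.2 CPM in luteal libraries, against 35.9, 54.8, 55.9, 71.8 and 96.6 CPM in follicular libraries. The luteal values lay close together, and 4 of the 5 follicular values were above all of them, with follicular 1 below. The log2 fold change was -0.37 (SE 0.21, edgeR adjusted p = 0.441). It was -0.60 without follicular 1 and 3 (edgeR adjusted p = 0.994).

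BDNF, a neurotrophin released with activity, had 5.73, 2.35, 4.32, 4.52 and 3.11 CPM in luteal libraries, against 3.33, 4.88, 5.25, 4.76 and 5.16 CPM in follicular libraries. The phases overlapped, and luteal 1 held the highest and luteal 2 the lowest value. Its log2 fold change was -0.22 (95% interval -0.75 to 0.30).

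HOMER1, a postsynaptic scaffold gene with a short activity-induced form that a count per gene does not separate, averaged 11.3 ± 2.27 CPM in luteal and 11.5 ± 3.31 CPM in follicular libraries. As a score per library, the mean log2 CPM of the 4 neuron-specific members, each centred on the 10 libraries, was 0.13, -0.23, 0.05, 0.06 and -0.12 in luteal libraries 1 to 5, against -0.24, 0.30, -0.14, 0.07 and 0.13 in follicular libraries 1 to 5. For the other 33 members it was -0.04, 0.13, -0.05, 0.34 and 0.23, against -0.30, 0.38, -0.53, -0.06 and -0.09. Follicular 2 was the highest library in both scores. The low end differed in part: follicular 3 was the lowest library for the other 33 members, and follicular 1 and luteal 2 were the lowest for the neuron-specific ones. The difference between the scores was not tested.

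**Figure D2:**
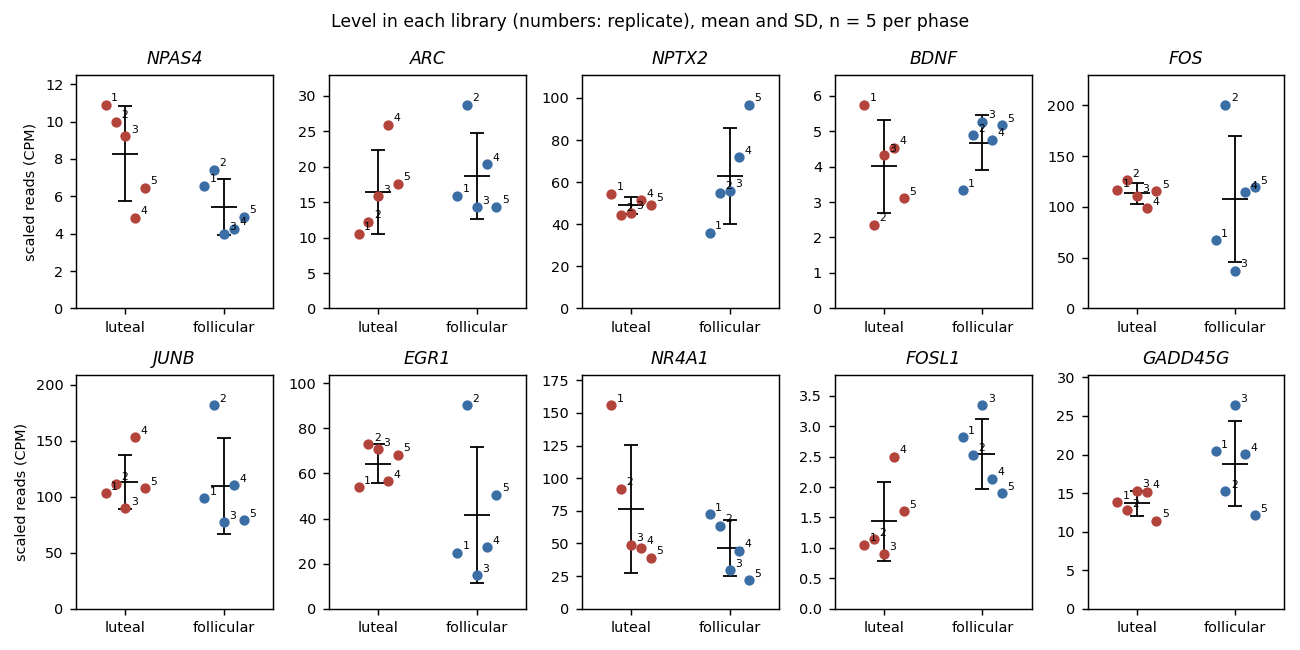
Level of 10 members in each library in CPM (points, numbered by replicate), with mean and SD, luteal left and follicular right (n = 5 each). The phases overlap in every panel; the luteal points of FOS, EGR1 and NPTX2 lie close together while the follicular points spread widely.

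In the FOS family, whose proteins pair with JUN proteins to form the transcription factor AP-1, FOS averaged about alike in both phases, with a 95% interval of -0.66 to 0.81 for its log2 fold change, and spread more widely over the follicular libraries. FOS had 116, 126, 111, 98.5 and 115 CPM in luteal libraries, against 67.1, 200.1, 36.99, 114 and 119 CPM in follicular libraries. The luteal libraries differed by 1.28-fold and the follicular ones by 5.41-fold, with the 10-library maximum in follicular 2 and the minimum in follicular 3. The mean was 113 ± 10.1 CPM in luteal and 108 ± 62.0 CPM in follicular libraries (log2 fold change 0.07, SE 0.34, edgeR adjusted p = 0.916). Its sign turned without follicular 1 and 3, to -0.35 (edgeR adjusted p = 0.994). FOSB had 8.59 to 14.9 CPM in luteal libraries, against 6.21 CPM in follicular 3 and 27.4 CPM in follicular 2, the same extremes as in FOS. FOSL2, by contrast, was highest in luteal 5 (42.4 CPM) and lowest in follicular 1 (9.94 CPM).

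FOSL1, which encodes the AP-1 subunit FRA-1, had 1.05, 1.14, 0.902, 2.49 and 1.60 CPM in luteal libraries, against 2.82, 2.53, 3.34, 2.14 and 1.89 CPM in follicular libraries. Of the luteal values, only that of luteal 4 lay inside the follicular range. Its log2 fold change was -0.81 (SE 0.30, edgeR adjusted p = 0.426), the lowest of the 37 members. In the gene table of sheep assembly ARS-UI_Ramb_v3.0, used for names and neighbours only, FOSL1 overlaps CCDC85B. That gene had 74.1 to 161 CPM in luteal and 93.6 to 253 CPM in follicular libraries (log2 fold change -0.64, SE 0.28, edgeR adjusted p = 0.426). The strand setting of the counting is not given in the sources used here, so reads of the pair may be shared and the FOSL1 level is uncertain. DUSP4 and ATF3 overlap an uncharacterised noncoding gene each in the same table, and the same limit holds for them.

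Of the JUN family, JUNB had 103, 111, 89.6, 153 and 107 CPM in luteal libraries, against 98.5, 181, 77.3, 110.2 and 78.8 CPM in follicular libraries (log2 fold change 0.05, SE 0.23). Luteal 4 and follicular 2 were the highest of their phases, and the ranges overlapped over most of their length. JUN averaged 141 ± 17.4 CPM in luteal and 113 ± 33.2 CPM in follicular libraries. JUND, the member of the family least dependent on stimulation, averaged 479.5 ± 102 CPM in luteal and 578 ± 98.7 CPM in follicular libraries. After adjustment for the first principal component the log2 fold change of JUND was 0.01 in place of -0.27. As the component varied in part with phase, that adjustment can take away part of a phase difference.

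All 4 EGR genes, zinc finger transcription factors induced through SRF, averaged higher in luteal libraries, with log2 fold changes from 0.21 to 0.79, none past the threshold (edgeR adjusted p from 0.426 to 0.772). EGR1 had 53.8, 72.9, 70.6, 56.4 and 68.2 CPM in luteal libraries, against 24.9, 90.2, 14.8, 27.2 and 50.4 CPM in follicular libraries. Each luteal library exceeded every follicular library other than follicular 2, which was the highest of the 10. Its log2 fold change was 0.63 (SE 0.39) with all libraries, 1.13 without follicular 2 and 0.21 without follicular 1 and 3, with edgeR adjusted p of 0.448, 0.428 and 0.994. EGR2 had 4.68 to 8.08 CPM in luteal libraries, against 1.91 to 3.33 CPM in 4 follicular libraries and 8.22 CPM in follicular 2. EGR4 had 3.77 to 6.41 CPM in luteal libraries, against 2.44 to 5.79 CPM in follicular libraries (log2 fold change 0.21). The sign of EGR3 turned to -0.23 without follicular 1 and 3 and to -0.19 after adjustment for the first principal component.

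The orphan nuclear receptor genes NR4A1 and NR4A3 averaged higher in luteal libraries without passing. NR4A1 had 156, 91.9, 48.8, 46.7 and 38.9 CPM in luteal libraries, against 72.3, 63.7, 29.5, 44.4 and 21.9 CPM in follicular libraries. Luteal 1 and 2 stood above all follicular libraries, as they did in NPAS4, and the other luteal libraries did not. The log2 fold change was 0.72 (SE 0.42, edgeR adjusted p = 0.441) and was 1.17 after adjustment for the first principal component (edgeR adjusted p = 0.492). Luteal 1 also held the highest ATF3 level, 13.8 CPM, against 2.87 to 7.74 CPM in follicular libraries. ATF3 is a stress-induced transcription factor of the AP-1 and CREB class.

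The Kruppel-like factors split. KLF4, KLF6 and KLF10 averaged higher in luteal libraries, with log2 fold changes of 0.88, 0.31 and 0.69, and KLF2, known for its induction by blood flow in endothelium, had -0.07. KLF4 had the widest range of the 37 members across the 10 libraries, 8.91-fold, with 2.76 to 7.30 CPM in luteal and 0.819 to 5.05 CPM in follicular libraries. The low end of that range rests on 16 reads each in follicular 1 and 3. Among the DUSP genes, which encode phosphatases that switch MAP kinases off, DUSP1 had 33.2 to 46.4 CPM in luteal libraries, against 20.6, 61.7, 10.0, 34.3 and 48.7 CPM in follicular libraries. DUSP6 differed little between phases (log2 fold change 0.09, 95% interval -0.26 to 0.44). DUSP4 and DUSP5 were at 3.51 CPM or less in every library.

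GADD45G, a growth arrest and DNA repair regulator, had 13.8, 12.8, 15.3, 15.1 and 11.4 CPM in luteal libraries, against 20.4, 15.2, 26.4, 20.0 and 12.1 CPM in follicular libraries. Follicular 1, 3 and 4 lay above all luteal libraries, and follicular 2 and 5 lay among them. The log2 fold change was -0.46 (SE 0.19, edgeR adjusted p = 0.426), and it was -0.20 without follicular 1 and 3 and -0.12 after adjustment for the first principal component. Its relative GADD45B had 22.3 to 109 CPM in luteal and 30.0 to 90.8 CPM in follicular libraries. Of the other regulators, the antiproliferative BTG2 had 81.8 to 167 CPM in luteal and 34.2 to 141 CPM in follicular libraries. SIK1, a kinase that CREB induces and that restrains CREB coactivators, had 67.4 to 274 CPM in luteal and 38.6 to 207 CPM in follicular libraries. RGS2, which limits G protein signalling, had a log2 fold change of 0.30. The pseudokinase gene TRIB1, the small MAF factor gene MAFF and the immediate early response genes IER2, IER3 and IER5 had log2 fold changes between -0.06 and 0.05.

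The range across the 10 libraries was over 4-fold for 15 of the 37 members and under 2-fold for 7. Follicular 3 held the lowest value of 12 members and follicular 1 and 5 of 6 each, and follicular 2 and luteal 4 held the highest value of 8 members each.

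**Figure D3:**
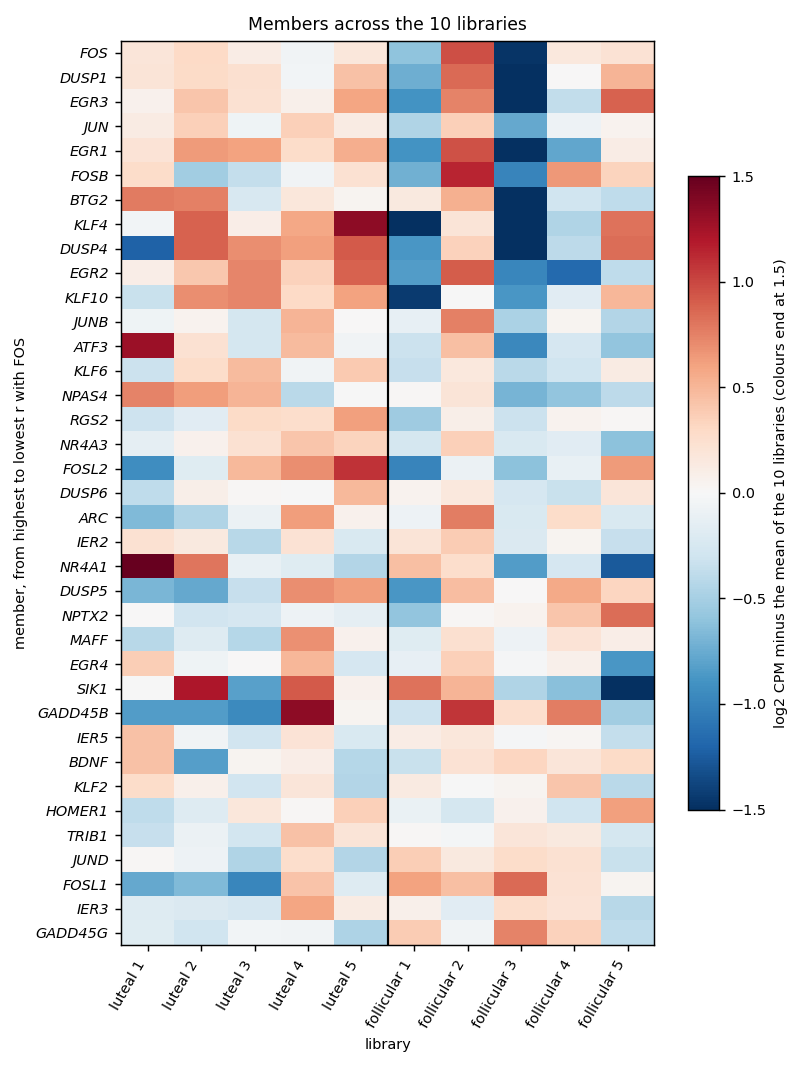
Log2 CPM of the 37 members in each library, minus the member's mean over the 10 libraries, luteal left of the line and follicular right; members run from the highest to the lowest correlation with FOS. Follicular 3 is low and follicular 2 high in the upper rows, which hold FOS, DUSP1, EGR3, JUN and EGR1.

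The spread was unequal between phases for a subset of members. The SD of log2 CPM of FOS was 0.13 over luteal and 0.93 over follicular libraries. For DUSP1 it was 0.17 and 1.05, for EGR1 0.20 and 1.01, for EGR3 0.23 and 1.11 and for NPTX2 0.12 and 0.53, luteal first. In MAFF, BDNF and TRIB1 the order was the reverse, with 0.46, 0.49 and 0.33 over luteal against 0.18, 0.27 and 0.18 over follicular libraries. Over the whole set the follicular SD was the larger in 19 of 37 members (51.4%), against 60.6% of all genes tested. The median SD over the members was 0.34 in luteal and 0.46 in follicular libraries, against 0.27 in luteal and 0.31 in follicular libraries over all genes. It was more than 2 times the luteal SD in 9 members (24.3%), against 13.3% of all genes. Without follicular 1 and 3 the follicular SD was 0.45 for FOS, 0.43 for DUSP1, 0.86 for EGR1 and 0.69 for EGR3. The difference in spread was noticed in these data and was not tested.

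**Figure D4:**
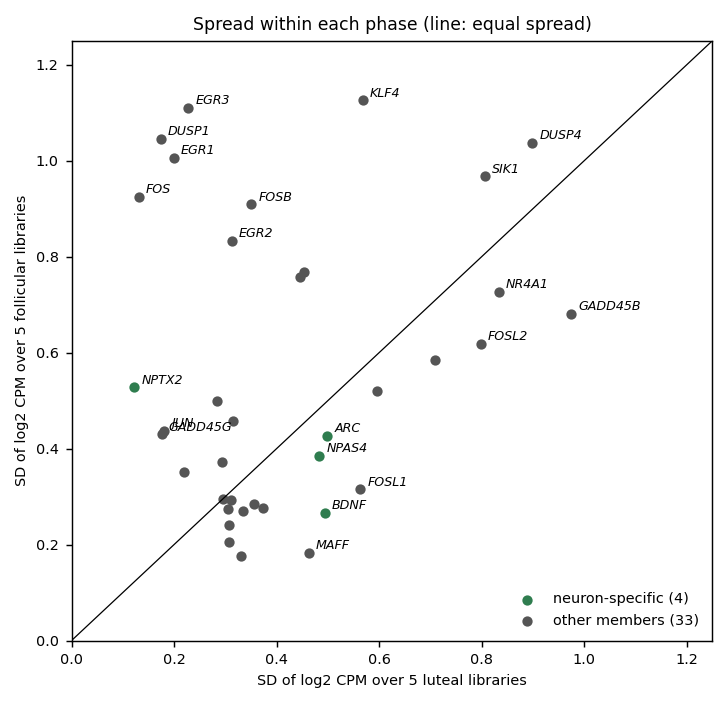
SD of log2 CPM over the 5 luteal (horizontal) and the 5 follicular libraries (vertical) for each of the 37 members, green for the 4 neuron-specific ones, with selected members named. FOS, DUSP1, EGR1, EGR3 and NPTX2 lie far above the line of equal spread, and BDNF and MAFF lie below it.

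How far members moved with FOS across the 10 libraries was measured for 36 relations with permutation tests. Genes outside the set were not measured this way, so the number that passed has no share of all genes beside it. DUSP1 followed FOS most closely, with Pearson r = 0.975 (permutation p = 7e-05, adjusted p = 0.00252) and Spearman rho = 0.891 (permutation p = 0.00105, adjusted p = 0.0378). By r, 4 more relations passed after adjustment, those of EGR3 (0.902), JUN (0.878), EGR1 (0.867) and FOSB (0.809), with permutation adjusted p from 0.0127 to 0.0203. By rho these 4 did not pass, with permutation adjusted p from 0.156 to 0.347. Without follicular 2 and 3, the libraries farthest from the median of FOS, r was 0.923 for DUSP1 (exact permutation p = 0.00871) and 0.779 for EGR3 (exact permutation p = 0.0271). For JUN, EGR1 and FOSB it was 0.702, 0.642 and 0.539 (exact permutation p = 0.0785, 0.0649 and 0.158), so these 3 kept their direction and did not pass over the 8 libraries left. With values centred on the phase means r was 0.976 for DUSP1, 0.901 for EGR3, 0.907 for JUN, 0.919 for EGR1 and 0.876 for FOSB.

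The neuron-specific members did not follow FOS past the threshold. Their r with FOS was 0.476 for NPAS4, 0.323 for ARC, 0.187 for NPTX2 and -0.0908 for BDNF (permutation adjusted p from 0.366 to 0.864). GADD45G ran against FOS without passing, with r = -0.728 (permutation p = 0.0165, adjusted p = 0.0896).

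Members were also set against the first principal component, on which follicular 1 and 3 were lowest. Of 37 relations 12 passed by r after adjustment, 9 of them positive, and 8 of the 12 passed by rho as well. The share of all tested genes that would pass was not computed, so this count is not read as a trait of the members. The highest r were those of KLF6 (0.908), KLF10 (0.886) and KLF4 (0.872), with permutation adjusted p from 0.00555 to 0.00678. JUND (-0.930), GADD45G (-0.872) and KLF2 (-0.786) ran the other way, with permutation adjusted p from 0.00555 to 0.0279. By rho these were 0.891, 0.867 and 0.879 for KLF6, KLF10 and KLF4 and -0.891, -0.830 and -0.721 for JUND, GADD45G and KLF2, of which KLF2 did not pass (permutation adjusted p = 0.0777). Without follicular 3 and luteal 5, the libraries farthest from the median of the component, r was 0.860, 0.866 and 0.768 for KLF6, KLF10 and KLF4 and -0.925, -0.786 and -0.839 for JUND, GADD45G and KLF2 (exact permutation p from 0.00149 to 0.0204). For FOSL2, EGR1, DUSP1 and RGS2 it was 0.704, 0.680, 0.640 and 0.570 (exact permutation p from 0.053 to 0.14), so those 4 kept their direction with p above 0.05. The exact p-values over the 8 libraries left are not adjusted for the 37 relations. DUSP4 (r = 0.854) and EGR3 (r = 0.838) passed by r and by rho, with permutation adjusted p from 0.00678 to 0.0114. Of the members that passed with FOS by r, DUSP1, EGR3 and EGR1 thus passed with the component too, and JUN and FOSB did not. FOS itself had r = 0.584 (permutation adjusted p = 0.146). Neuron-specific members lay between -0.258 and 0.354, none past the threshold (permutation adjusted p from 0.498 to 0.951). The component is computed from all tested genes, members included, and its lowest libraries, follicular 1 and 3, had the highest ribosomal protein share. The part of RNA quality and depth in these relations was not tested.

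**Figure D5:**
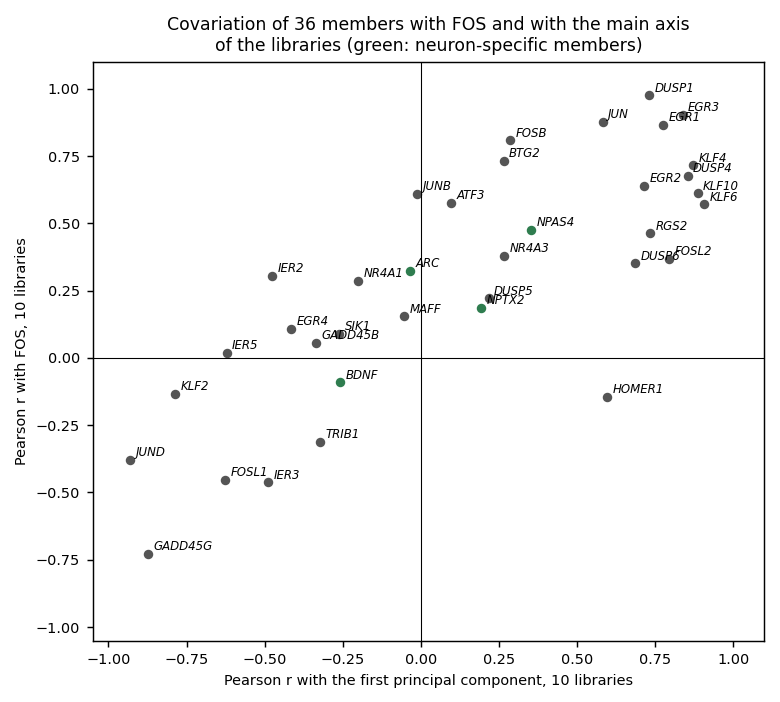
Pearson r across the 10 libraries of 36 members with the first principal component (horizontal) and with FOS (vertical), green for the 4 neuron-specific members. DUSP1, EGR3, JUN, EGR1 and FOSB are at the top, KLF6 and KLF10 at the right and GADD45G at the lower left.

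The genes around the set were compared from 3 lists. Of 35 upstream kinases and transcription factors, 24 averaged higher in luteal libraries (median log2 change 0.11), where 51.5% of all genes were higher (median 0.01). Adjusted over the whole table, 0 passed edgeR or DESeq2. At unadjusted p under 0.05, edgeR gave 3 higher (MEF2C, MEF2A and RPS6KA5), against 4.27% of all genes. It gave 2 lower (MAP2K2 and CRTC1), against 7.12% of all genes. MEF2C, a calcium-dependent activator in neurons, averaged 47.2 CPM (28.7 to 57.7) in luteal and 33.5 CPM (26.8 to 37.5) in follicular libraries (edgeR adjusted p = 0.426). CRTC1, a CREB coactivator, averaged 113 ± 8.23 CPM in luteal and 134 ± 13.8 CPM in follicular libraries (edgeR adjusted p = 0.426).

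Of 30 further primary response genes, 22 averaged higher in luteal libraries, with a median of 0.30, where 51.5% of all genes were higher. Of the 30, 0 passed edgeR or DESeq2 over all genes. Unadjusted p under 0.05 by edgeR was reached by 2, both higher, against 4.27% of all genes higher and 7.12% lower. They were CSRNP1, a nuclear protein induced by many stimuli, with a log2 fold change of 0.52 (SE 0.16), and NFKBIA, the inhibitor of NF-kappa-B, with 0.49 (SE 0.22), both with edgeR adjusted p = 0.426. Of 20 later activity-regulated genes of neurons, 10 averaged higher and 10 lower, with a median of -0.02. In that list edgeR called 0 genes and DESeq2 1, against 0% and 0.227% of all genes. The 3 at unadjusted p under 0.05 by edgeR, VGF, SST and KCNA1, all averaged lower in luteal libraries, against 7.12% of all genes lower at that p. The 1 gene called by DESeq2 was VGF, a secreted neuropeptide precursor. It had 369 to 479 CPM in 4 luteal libraries and 1122 CPM in luteal 4, against 1035 to 1493 CPM in follicular libraries (log2 fold change -1.19, edgeR adjusted p = 0.426, DESeq2 adjusted p = 0.0280).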

How the data were processed

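Per the submitters' processing notes, the tools were featureCounts 2.0.0, TopHat2 2.1.1, SAMtools 1.9, Bowtie2 2.3.5.1, FastQC and bcl2fastq 2.20, listed with no role or order. The library kit was a stranded mRNA kit, per the labels. Unnormalised read counts of genes in 10 libraries were deposited as whole numbers. Which genome build, strand setting and rule for shared reads made them is not given in the sources used here.

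Counts were analysed in R 4.3.3 with the two-sided quasi-likelihood F-test of edgeR 4.0.16, phase as the only term, TMM scaling and filterByExpr (minimum count 10, minimum total 15), over 18276 genes. Benjamini-Hochberg adjustment ran over all of them, with a threshold of 0.05. Intervals cover 95% and are not adjusted. CPM are relative to TMM-scaled totals and are not divided by gene length, so levels of different genes are not compared. Correlations were taken on log2 CPM (prior count 2) with 100000 permutations, or all permutations for 8 libraries. The p-values over all libraries were adjusted over each family of 36 or 37 relations, and the exact p-values over 8 libraries were not adjusted. The family with the first principal component was added after the data had been seen. DESeq2 1.42.0 and limma 3.58.1 were alternatives on the same genes. The tests were checked on simulated counts with 200 genes changed.

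The members, lists and settings were chosen with earlier results of these data known. All members are named. Full values are given for the 4 neuron-specific members, FOS, JUNB, EGR1 and NR4A1, and those at unadjusted p under 0.05 or with phases that do not overlap. Other genes are named from the 3 lists at unadjusted p under 0.05, with at most 4 a list by smallest p, and MEF2A, the fifth of its list, is named beside the count it belongs to. DUSP1, FOSB, KLF4 and other members given in part were picked after their values were seen, as were the measures of spread. Every pair of libraries differed beyond sampling noise in a chi-square test over genes.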

Additional observations from a re-analysis of the deposited data

Results flagged for a closer look

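Single libraries that stood apart were sought with Dixon's ratio: the distance from an extreme value to its neighbour over the range of the 5 libraries, with a 95% limit of 0.71. It was passed in 4 of 82 groups of libraries, and chance gives about 1 in 20, or 4.1. GADD45B was at 109 CPM in luteal 4, with the next luteal library at 44.4 CPM. EGR2 was at 8.22 CPM in follicular 2, with the next follicular library at 3.33 CPM. BDNF was at 3.33 CPM in follicular 1, with the next lowest follicular library at 4.76 CPM. DUSP4 was at 0.756 CPM in luteal 1, with the next lowest luteal library at 2.84 CPM.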

How the results depend on the processing

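No member was called in any of the 20 alternatives, of which 1 was a DESeq2 fit, 1 a limma-voom fit and the others edgeR fits, and the smallest member adjusted p was 0.0606, for GADD45G without follicular 5. Over all genes DESeq2 called 35 and edgeR called 0 to 1 with a library left out. Members at unadjusted p under 0.05 numbered 3 in the fit reported, 6 with no filter on low counts (4 higher and 2 lower, with 3.83% and 5.93% of all genes), 6 by DESeq2 (4 higher and 2 lower, with 5.26% and 8.76%), 13 with the replicate number as a block (10 higher and 3 lower, with 12.1% and 12.6%) and 1 to 9 with a library left out. The number with a log2 fold change above 0 stayed between 20 and 26. The labels give the replicate numbers without saying that they pair the libraries. The correlation of deviations from the phase means ran from -0.33 to 0.63 over the 5 same-numbered pairs. Of 5 luteal libraries 1 correlated best with its own number. These correlations were not tested, so whether the numbers pair the libraries was not settled. Of 37 members, 22 kept their sign throughout, 16 higher and 6 lower. Some of the 16 came near 0, with lowest values of 0.0037 for FOSL2, 0.021 for KLF6, 0.051 for DUSP4 and 0.052 for EGR4. Of the 6, FOSB reached -0.035 and GADD45B -0.069. After adjustment for the first principal component the log2 fold change turned to -0.20 for FOS, -0.19 for EGR3, -0.18 for DUSP1, -0.13 for DUSP6, 0.012 for JUND, 0.13 for IER2, 0.19 for KLF2 and 0.11 for TRIB1. Without follicular 1 and 3 it turned to -0.35 for FOS, -0.12 for JUNB, -0.23 for EGR3, -0.26 for DUSP1 and 0.062 for TRIB1. TRIB1 also turned with upper-quartile scaling (0.014), no filter (0.0084) and limma-voom (0.0017). With a library left out the signs of 13 members turned, with ranges of -0.41 to 0.027 for ARC, -0.046 to 0.49 for DUSP1, -0.38 to 0.0051 for DUSP5, -0.036 to 0.18 for DUSP6, -0.14 to 0.43 for FOS, -0.13 to 0.16 for HOMER1, -0.10 to 0.088 for IER2, -0.14 to 0.11 for IER3, -0.075 to 0.12 for IER5, -0.087 to 0.32 for JUNB, -0.17 to 0.033 for KLF2, -0.30 to 0.034 for MAFF and -0.13 to 0.077 for TRIB1. The cause of these turns was not tested. On the first principal component follicular 1, 3 and 4 lay below every luteal library, so adjustment for it can take away part of a phase difference. In 6 members, FOSL1, DUSP4, DUSP5, KLF4, EGR3 and EGR2, at least 1 library had fewer than 50 reads, with 9 the lowest, in DUSP4.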

Other observations

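Luteal 4, the highest library for 8 members, was also high in some primary response genes outside the set, named after their values were seen. CEBPD, a transcription factor of the acute phase response, had 307 CPM in luteal 4 and 65.5 to 122 CPM in the other luteal libraries, against 71.2 to 133 CPM in follicular libraries. PER1, a clock gene that CREB induces, had 422 CPM in luteal 4 and 109.6 to 281 CPM in the other luteal libraries, against 169 to 263 CPM in follicular libraries. Neither differed between phases past the threshold by edgeR. Among the other primary response genes listed, ZFP36, MYC, CEBPB, SOCS3, MCL1, SIK3 and AMIGO3 were also highest in luteal 4. The rest of that list was not highest in luteal 4. TSC22D3 had 228 CPM there and 237 CPM in luteal 5, and SGK1 had 17.3 CPM there and 23.7 CPM in luteal 3.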
